A study of Mus musculus with 19 samples.

Results

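The data compared here are 13 of the 19 microarrays of a study of mouse thymocytes, chosen because they allow 1 question to be asked: does loss of Rptor move the same genes the same way on both branches of T-cell development? Immature single-positive (ISP) cells, on the αβ branch, were represented by 4 WT and 3 Raptorfl/fl arrays, and γδ T cells by 3 WT and 3 Raptorfl/fl arrays. All mice were C57BL/6. The Raptorfl/fl arrays came from a CD2-cre mouse crossed to a Raptorfl/fl mouse and carry the genotype label Rptor-/-. The CD2-cre transgene is active in lymphocytes, so other lymphoid cells of these mice may have lost the gene too. The WT animals are labelled only as WT mouse, and age and sex are not given in the sources used here. ISP cells were sorted as CD4-CD8+TCRβ-. The γδ gate excluded cells with CD4 or CD8, with TCRβ, with NK1.1 or with Gr1, and names no positive stain for the γδ receptor. The other 6 arrays, of the earlier DN3a stage, entered the estimate of the spread and are quoted only beside single genes.

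Rptor encodes Raptor, the subunit that brings substrates to the kinase mTOR in the complex mTORC1. This complex promotes ribosome production, translation, and the synthesis of sterols, fatty acids and nucleotides. The αβ and γδ lineages part in the thymus at the double-negative stage: a signal from the pre-T-cell receptor sends cells through a burst of division into the ISP and double-positive stages, whereas a signal from a γδ receptor leads to the γδ lineage. Strong receptor signals induce the early genes of the Egr, Fos, Jun and Nr4a families and the inhibitor gene Id3.

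The values are log2 signals per gene. Array medians lay between 3.80 and 3.88 on ISP arrays and between 6.04 and 6.09 on γδ arrays, so the table holds at least 2 normalizations, and ISP levels are never set against γδ levels below. Instead, the Raptorfl/fl minus WT difference was taken within each population (the genotype difference), and then the γδ genotype difference was subtracted from the ISP one (the contrast between populations). A positive contrast means a more positive genotype difference in ISP cells. Of 22180 genes in the table, 10835 had a mean signal above the array median in both populations and are the genes described. Just inside this limit was Mcf2l, at 0.00012 log2 units above the median in its weaker population, and just outside was Sost, at 0.00065 below it (-0.00065). Of the kept genes, 230 were above the median in only 1 genotype group of a population, and 19 of these passed the test of the contrast. "Called" means an adjusted p under 0.05 by limma, adjusted over all 22180 genes. Nothing in the labels ties replicate arrays to different mice, and the p-values reflect the scatter among arrays alone, part or all of which may be technical. The number of arrays limits the precision. In sorted populations measured in bulk, fewer cells of a type and less RNA per cell cannot be told apart.

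The marker list of each population was high on its own arrays. The γδ and ISP lists both hold Cd3e, and the mature αβ T-cell list shares Cd8a and Cd8b1 with the ISP list. Purity was not tested. Of 10 listed γδ markers 5 were measured (the receptor chain genes were not among them); their mean level was 4.95 to 5.14 above the array median on WT γδ arrays and 4.89 to 4.98 on Raptorfl/fl γδ arrays. Of 10 ISP markers 8 were measured, with means of 6.21 to 6.33 above the median on WT and 6.35 to 6.38 on Raptorfl/fl ISP arrays. On ISP arrays (WT first) γδ markers read 1.54 to 1.72 and 1.54 to 1.76, and mature αβ T-cell markers 2.35 to 2.78 and 2.47 to 2.61. Dendritic cell markers read 1.19 to 1.32 and 1.14 to 1.20 there, and B-cell markers 0.60 to 0.64 and 0.53 to 0.56. Stroma markers read 0.41 to 0.59 and 0.49 to 0.53, and erythroid markers 0.086 to 0.215 and 0.087 to 0.232. Natural killer and myeloid means were below the ISP array median. The mean of 8 measured natural killer and innate lymphoid markers lay near or below the median of γδ arrays (-0.12 to 0.13 in WT, -0.23 to -0.10 in Raptorfl/fl), and that of 12 myeloid markers below it (-0.36 to -0.25 and -0.46 to -0.32). Markers of B cells (0.37 to 0.48 and 0.24 to 0.38), dendritic cells (0.90 to 0.99 and 0.95 to 1.10), erythroid cells (-0.49 to -0.40 and -0.41 to -0.27), mature αβ T cells (1.18 to 1.31 and 0.94 to 1.11) and thymic stroma (0.67 to 0.76 and 0.61 to 0.74) had ranges on WT and Raptorfl/fl γδ arrays that overlapped except for the αβ T-cell list. Of the natural killer and innate lymphoid markers, Ncr1, Klrb1c, Klrg1, Gata2 and Itga2 were below the γδ array median in both genotypes, Nfil3 (1.25 above it in WT and 1.11 in Raptorfl/fl) and Rora (1.17 and 1.05) were above it, and Eomes was at 0.49 in WT and -0.03 in Raptorfl/fl.

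The targeted gene was lower in both populations. Rptor read 6.49, 6.47, 6.34 and 6.47 on WT ISP arrays and 6.06, 6.19 and 6.34 on Raptorfl/fl ISP arrays, a genotype difference of -0.24 (SE 0.08, limma adjusted p = 0.038). On γδ arrays it read 9.79, 9.77 and 9.74 in WT and 9.48, 9.52 and 9.40 in Raptorfl/fl, a genotype difference of -0.30 (SE 0.08, limma adjusted p = 0.049). Both calls were near the threshold. The ISP call was lost without ISP Raptorfl/fl array 1 (-0.18) or 2 (-0.24) or ISP WT array 1 (-0.23), 2 (-0.24) or 4 (-0.23). The γδ call was lost without any 1 of the 6 γδ arrays (-0.33 to -0.27). It was also lost without ISP Raptorfl/fl array 2 or ISP WT array 1, 2 or 4, where the γδ estimate stayed at -0.30. The ISP groups met at 6.34 and the γδ groups did not overlap. The contrast was 0.06 (SE 0.11, limma adjusted p = 0.84) and was not called. Exact two-sided permutation tests within a population gave p = 0.114 for ISP cells, where the smallest possible value is 0.0571, and p = 0.1 for γδ T cells, which is also the lowest value their 6 arrays can give. One probe set read the gene and may lie outside the deleted part, so the remaining signal is no measure of deletion.

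Across the 10835 genes, loss of Rptor had a different size or direction in the 2 populations for 1110 genes (10.2%), but few of these were moved significantly in opposite directions. The contrast was positive for 412 genes (3.8%) and negative for 698 (6.44%). In ISP cells 2579 genes were called (23.8%), 1206 higher (11.1%) and 1373 lower (12.7%) in Raptorfl/fl, and in γδ T cells 479 (4.42%), 256 higher (2.36%) and 223 lower (2.06%). Which γδ direction was the larger turned with the processing: 70.7% of γδ calls were higher with arrays centred on their medians, and 40.7% (251 higher and 365 lower) after quantile normalization. Genotype groups did not overlap for 30.6% of genes in ISP cells and 29.6% in γδ T cells. Over all 22180 genes, with no filter on level, 1283 contrasts were called (5.78%), 15 genes were opposite (0.0676%) and 133 moved the same way (0.6%). Only 138 genes were called in both populations. Of these, 125 moved the same way (1.15% of genes, 57 higher and 68 lower) and 13 opposite ways (0.12%), all 13 of them also called in the contrast. The arrays were set side by side for opposing effects of Raptor loss, but among genes called in both populations shared directions outnumbered opposite ones. The 1110 contrast calls were mostly changes seen in 1 population: 856 were called in ISP cells but not in γδ T cells, 139 in γδ T cells but not in ISP cells, and 91 in neither.

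**Figure D1:**
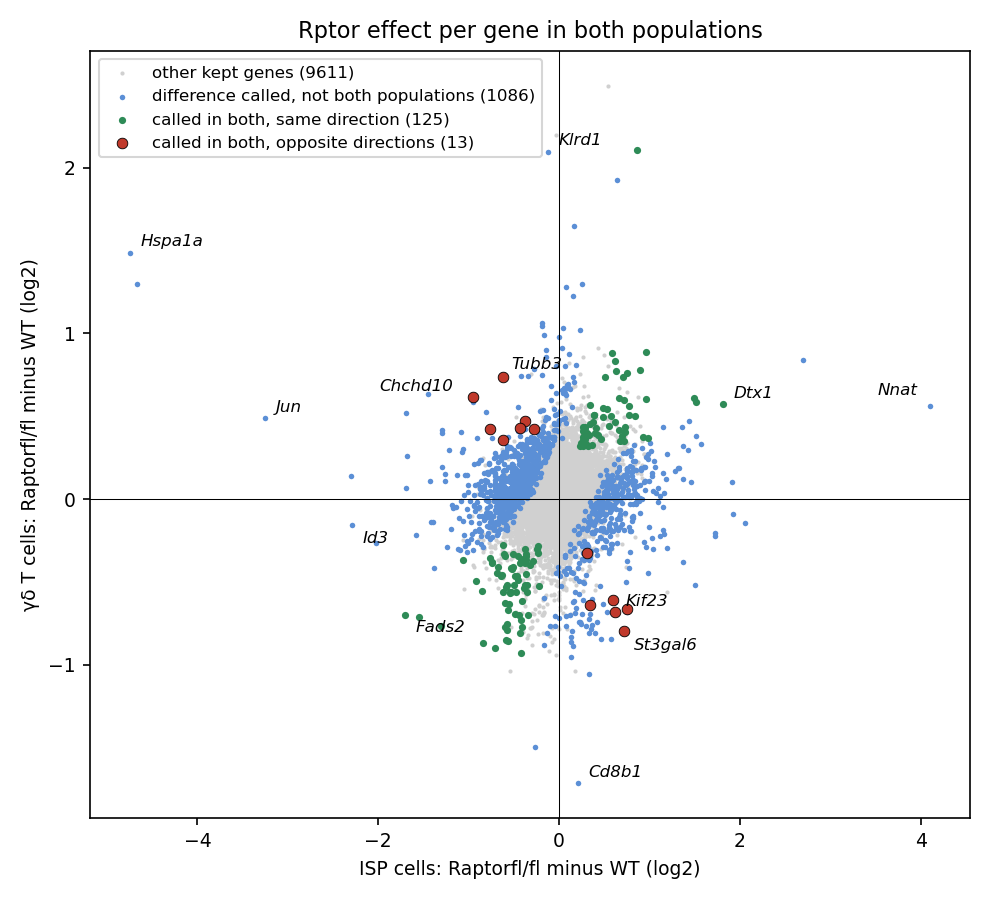
Each point is 1 of 10835 genes, with the Raptorfl/fl minus WT difference in ISP cells on the horizontal axis and in γδ T cells on the vertical axis, both in log2 units. The 13 red genes called in opposite directions lie in the upper left and lower right, the 125 green genes called in the same direction in the remaining corners, and the most extreme blue genes lie along 1 axis, such as Jun on the ISP axis and Klrd1 on the γδ axis.

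The genotype differences of the 2 populations, which share no arrays, were weakly and positively related over genes (Pearson r = 0.18, Spearman rho = 0.22 over 10835 genes, a description only, since genes are not independent). Genes higher in Raptorfl/fl ISP cells had a positive estimate in γδ T cells in 927 of 1206 cases (76.9%), against 58.0% of all kept genes. Genes lower in ISP cells had a positive γδ estimate in 569 of 1373 cases (41.4%). Read from the other side, 69.9% of the genes higher in γδ T cells and 26.9% of those lower there had a positive ISP estimate, against 50.2% of all kept genes. Estimates of opposite sign, called or not, were found for 745 of the 1110 contrast genes (67.1%) and for 42.3% of all kept genes. The contrast genes were selected by a large difference between these same estimates, which favours opposite signs. The higher share is therefore no evidence of opposing effects. Genotype differences were wider in ISP cells, with an SD over genes of 0.31 against 0.21 in γδ T cells. The interquartile range of signals over genes was also wider on ISP arrays, at 2.51 against 2.10 on the others, so the same change may not read as the same number in both sets.

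Of the 13 opposite genes, 6 rose in ISP cells and fell in γδ T cells. They were Neil3, a DNA glycosylase of replicating cells, Spc25, a subunit of the Ndc80 kinetochore complex, Kif23, a kinesin of the central spindle, Top2b, a type II topoisomerase, St3gal6, a sialyltransferase, and Syt13, an atypical synaptotagmin. The 7 genes that fell in ISP cells and rose in γδ T cells were Chchd10, a mitochondrial protein of the cristae, Erf, a repressor of the ETS family, Ipo4, a nuclear import receptor, Pprc1, a coactivator of mitochondrial biogenesis, Colgalt1, a collagen galactosyltransferase, Tubb3, a β-tubulin, and H2-K1, a classical MHC class I gene.

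Of the 13 opposite genes, St3gal6 had the smallest p of the contrast. On ISP arrays it read 3.73, 4.02, 4.05 and 3.97 in WT and 4.87, 4.51 and 4.58 in Raptorfl/fl, close to the ISP array median, and rose by 0.71 (SE 0.12). On γδ arrays it read 9.16, 8.83 and 9.16 in WT and 8.09, 8.16 and 8.50 in Raptorfl/fl, and fell by 0.80 (SE 0.12). The groups overlapped in neither population, as was so for 10.3% of kept genes, and the contrast was 1.51 (SE 0.17, limma adjusted p = 3.8e-05). Syt13 read 7.91, 8.02, 8.02 and 7.91 against 8.31, 8.29 and 8.31 in ISP cells, a rise of 0.34, and 8.47, 8.43 and 8.27 against 7.83, 7.65 and 7.76 in γδ T cells, a fall of 0.64 (WT first). Its contrast was 0.99 (SE 0.11, limma adjusted p = 4.7e-05).

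For Kif23 the ISP change rested more on single arrays. WT ISP arrays read 8.18, 8.30, 7.99 and 7.54 and Raptorfl/fl ISP arrays 8.90, 8.56 and 8.42, with WT array 4 the lowest and Raptorfl/fl array 1 the highest. In γδ T cells the values were 9.47, 9.82 and 9.71 in WT and 8.83, 8.96 and 9.16 in Raptorfl/fl. The genotype differences were 0.62 (SE 0.16) and -0.69 (SE 0.18), and the contrast 1.31 (SE 0.24, limma adjusted p = 0.0027). Spc25 had the same 2 extreme ISP arrays: 7.58, 7.53, 7.45 and 7.19 in WT and 8.40, 7.85 and 7.85 in Raptorfl/fl. On γδ arrays Spc25 read 7.84, 8.24 and 8.16 in WT and 7.34, 7.54 and 7.53 in Raptorfl/fl, and its contrast was 1.21 (SE 0.22, limma adjusted p = 0.0025). Neil3 rose by 0.75 and fell by 0.67, a contrast of 1.41, and Top2b rose by 0.30 and fell by 0.32, a contrast of 0.63 (limma adjusted p = 9.0e-04 and 0.0031). Without Raptorfl/fl ISP array 1 the ISP calls of Spc25 (0.41), Kif23 (0.49) and Top2b (0.27) were lost.

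Among the genes that went the other way, Chchd10 had the widest contrast. It read 6.43, 6.43, 6.80 and 6.34 on WT and 5.30, 5.73 and 5.62 on Raptorfl/fl ISP arrays, and 7.01, 7.14 and 6.69 on WT and 7.57, 7.52 and 7.59 on Raptorfl/fl γδ arrays. It fell by 0.95 (SE 0.12) in ISP cells and rose by 0.62 (SE 0.13) in γδ T cells, with a contrast of -1.57 (SE 0.18, limma adjusted p = 4.9e-05). Erf read 7.66, 7.22, 7.54 and 7.44 against 6.62, 6.72 and 6.76 in ISP cells and 8.02, 8.21 and 8.09 against 8.50, 8.40 and 8.69 in γδ T cells (WT first). Its genotype differences were -0.77 and 0.42, and its contrast -1.19 (SE 0.14, limma adjusted p = 5.2e-05). No group of either gene overlapped with its counterpart.

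Tubb3 changed by -0.62 in ISP cells and 0.74 in γδ T cells. Its WT ISP arrays ranged from 5.38 to 6.14 and its Raptorfl/fl ISP arrays from 4.97 to 5.34; the groups nearly met. Pprc1 changed by -0.43 and 0.43, Ipo4 by -0.62 and 0.35, Colgalt1 by -0.28 and 0.42, and H2-K1 by -0.37 and 0.47, with contrasts from -0.98 for Ipo4 to -0.70 for Colgalt1. Ipo4 was read by 2 probe sets, and with their mean its contrast was -0.27 and not called. H2-K1 belongs to a family of near-identical class I genes, and its signal may include theirs. In DN3a cells 136 genes were called (1.26%), and none of the 13 was among them. Their DN3a estimates ran from -0.32 to 0.15 for the 6 genes that rose in ISP cells, and from 0.01 to 0.51 for the other 7, all of which were above 0.

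**Figure D2:**
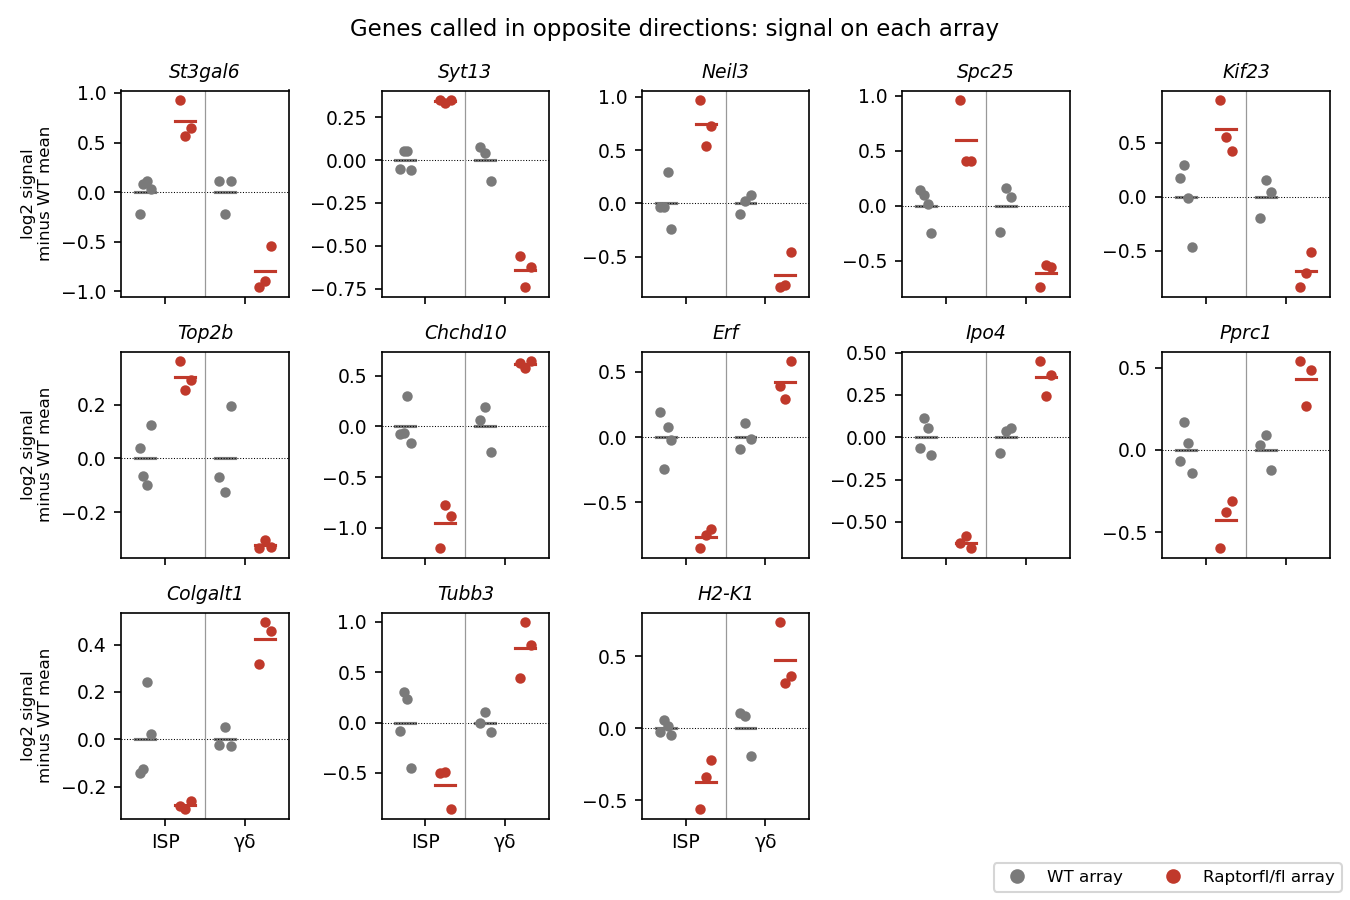
Each panel shows 1 of the 13 genes called in opposite directions, with 1 point per array: log2 signal minus the WT mean of the same population (vertical axis), ISP arrays on the left and γδ arrays on the right, WT in grey and Raptorfl/fl in red, bars at group means. In each panel the red points lie on opposite sides of 0 in the 2 populations, and no red point lies within the grey range of its population.

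The contrast of all 13 genes stayed called, with both signs kept, in each of 13 fits that left out 1 array. The calls within a population were less firm, because γδ adjusted p-values ran up to 0.046. St3gal6 and Syt13 kept all 3 calls in 13 of 13 such fits, Chchd10 in 12, Erf in 10, Pprc1 in 9, and Kif23 and Neil3 in 8. Spc25 kept them in 6, Ipo4 and Tubb3 in 5, Colgalt1 in 4, Top2b in 3 and H2-K1 in 2. The number of genes called in opposite directions was therefore 2 without γδ WT array 3, 7 without γδ Raptorfl/fl array 2 or 3, and 8 without γδ WT array 2, and the number called in the same direction was 45 without γδ WT array 2 and 53 without γδ Raptorfl/fl array 2. It was 80 without ISP Raptorfl/fl array 3, 76 without γδ WT array 1 and 83 without γδ Raptorfl/fl array 3. The split also moved with scaling: with each array centred on its median 19 genes were opposite, 3 higher and 16 lower in ISP cells, and 21.5% of contrast calls were positive in place of 37.1%. After quantile normalization across all arrays 24 were opposite, 17 higher and 7 lower in ISP cells, and 49.7% of contrast calls were positive.

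Genes of mitosis formed the largest block of positive contrasts among the lists examined. All 30 listed genes above the filter had a negative estimate in γδ T cells, with a median genotype difference of -0.68. There 16 were called lower, against 2.06% of all kept genes. In ISP cells the median was 0.24, 23 of 30 estimates were above 0, and 4 of 30 were called higher, a share near the 11.1% of all kept genes: Cenpf (0.99), Cenpe (0.75), Kif23 (0.62) and Nusap1 (0.62), which act at kinetochores or the spindle. The contrast was called for 17 of 30, all positive, with a median of 0.93, where all kept genes had 3.8% positive calls and a median of -0.02. No set test was run.

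The level of the mitosis list, taken as the median over its genes of the signal minus the WT mean, was 0.06, 0.13, 0.05 and -0.28 on WT ISP arrays and 0.46, 0.09 and 0.07 on Raptorfl/fl ISP arrays. The ISP groups thus overlapped, and the ISP median was 0.10 without Raptorfl/fl array 1 and 0.15 without WT array 4. On γδ arrays the level was -0.20, 0.14 and 0.09 in WT and -0.89, -0.64 and -0.47 in Raptorfl/fl, with no overlap. The median contrast stayed between 0.77 and 1.03 with any 1 array left out, and between 12 and 21 of the 30 contrasts were called. The number called lower in γδ T cells was 6 without γδ WT array 2, 7 without γδ Raptorfl/fl array 2, 8 without γδ Raptorfl/fl array 1, 9 without γδ WT array 3 and 27 with the replicate number as a block, and the number called higher in ISP cells was 2 without ISP Raptorfl/fl array 1.

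The single mitosis genes named next were picked by the p or size of their contrast. They illustrate the arrangement and add no support for it. The contrast was not called for 13 of the 30 list members, and 7 ISP estimates were below 0. Nek2, for example, had genotype differences of -0.35 in ISP cells and -0.40 in γδ T cells, a contrast of 0.05. Top2a, the type II topoisomerase of dividing cells, read 10.40, 10.42, 10.22 and 10.13 in WT and 10.79, 10.56 and 10.61 in Raptorfl/fl ISP cells, an estimate of 0.36 that was not called. In γδ T cells it read 9.65, 9.93 and 10.02 in WT and 8.99, 9.08 and 9.25 in Raptorfl/fl, a fall of 0.76 (SE 0.14), and its contrast was 1.13 (SE 0.19, limma adjusted p = 0.0012). Kif11, the kinesin that separates spindle poles, had genotype differences of 0.46 and -0.85, and Cdca3, a trigger of mitotic entry, of 0.30 and -0.77, of which the γδ values were called. Outside the list, Spag5, Ckap2l and Knl1, of the spindle and kinetochore, fell in γδ T cells (-0.81, -0.74 and -0.81), with contrasts of 1.20, 1.16 and 1.14. The γδ calls of Ckap2l and Kif11 were lost in 5 and 4 of the fits that left out 1 array, where the estimates were -0.76 to -0.65 and -0.83 to -0.71. Birc5, which encodes survivin, had a contrast of 1.09 that was not called without γδ WT array 3 (1.01).

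Genes of S phase did not share this arrangement. All 34 of 34 kept genes had negative estimates in both populations, with medians of -0.34 in ISP cells and -0.53 in γδ T cells. Limma called 16 lower in ISP cells and 24 in γδ T cells, against 12.7% and 2.06% of all kept genes. It called 13 in both, where 1.15% of all genes were called in the same direction. The ISP number was 9 without ISP Raptorfl/fl array 3 and the γδ number 15 without γδ WT array 2. The median contrast was 0.16, and it was called for 2 genes, Tyms (0.66), which encodes thymidylate synthase, and Prim1 (0.72), a primase subunit; the Prim1 call was lost with single arrays left out. The S phase level was 0.07, 0.07, -0.06 and -0.06 on WT ISP arrays against -0.24, -0.34 and -0.46 on Raptorfl/fl ISP arrays, and -0.03, 0.05 and 0.00 on WT γδ arrays against -0.66, -0.51 and -0.40 on Raptorfl/fl γδ arrays. Neither pair of groups overlapped. The list of replication genes was thus lower in both populations, and that of mitosis genes in γδ T cells, while in ISP cells limma called 4 mitosis genes higher, close to the background share, and 0 lower (12 higher and 1 lower at an unadjusted p under 0.05).

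**Figure D3:**
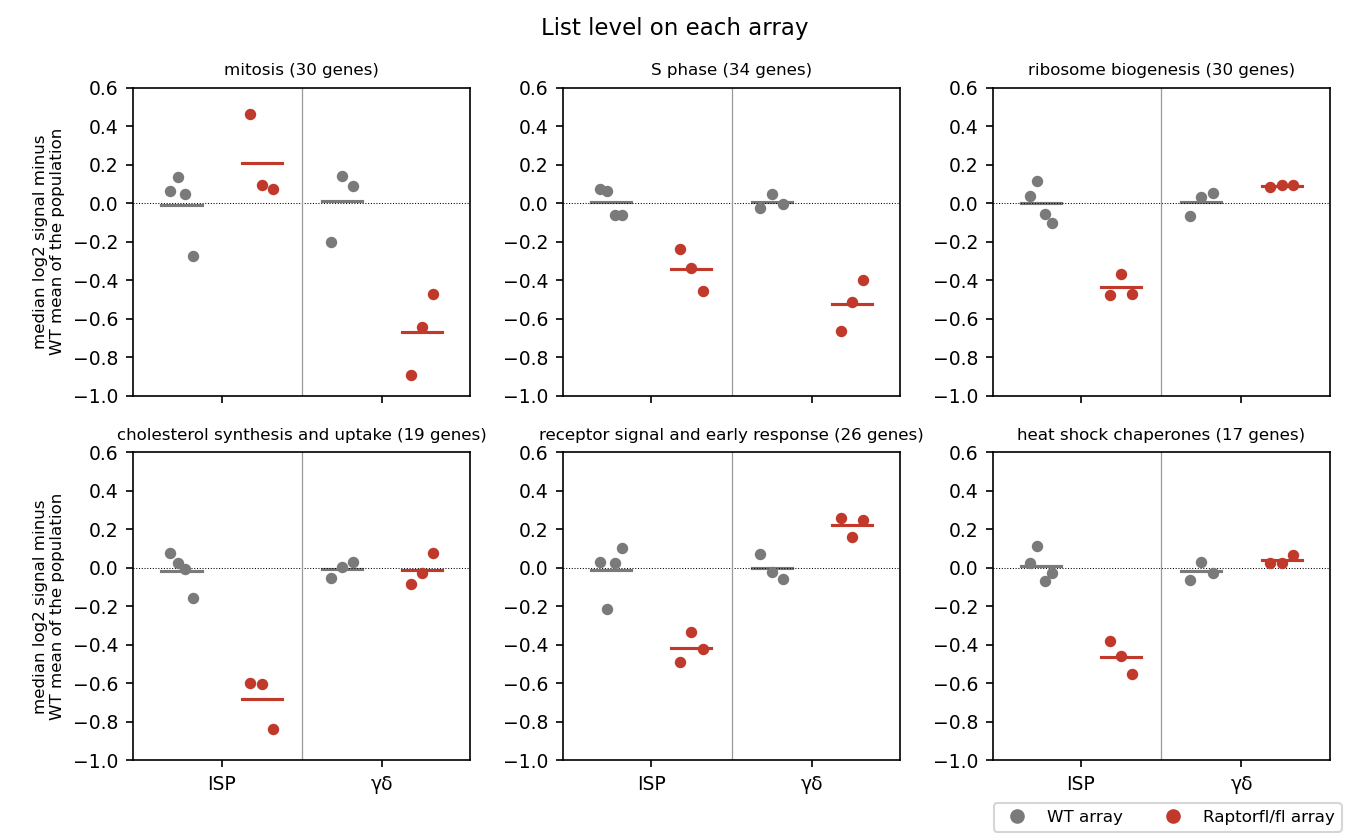
Each panel shows a gene list and each point an array: the median over the list's kept genes of log2 signal minus the WT mean of that population, WT in grey and Raptorfl/fl in red, bars at group means, ISP arrays left and γδ arrays right. S phase falls in both populations, mitosis falls in γδ T cells while the ISP groups overlap, and the other 4 lists fall in ISP cells and stay near or above 0 in γδ T cells.

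Many promoters of mitosis genes carry the cell-cycle homology region (CHR), with the letters TTTGAA, through which such genes are repressed outside G2 and mitosis. For 6 genes described above, chosen to show the element in opposite and 1-population genes, the text gives the 30 bases around the match, from RefSeq promoter windows of build GRCm38.p6 that run from 250 bases before to 50 after the gene start. Capitals mark the match, TTCAAA where it lies on the other strand, and each sequence is 5′ to 3′ on the gene's strand.
Spc25, chr2:69206172-69206201, minus strand, match 25 to 30 bases after the start: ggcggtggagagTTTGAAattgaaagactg
Kif23, chr9:61946780-61946809, minus strand, match at bases 3 to 8: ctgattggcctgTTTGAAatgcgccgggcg
Cenpf, chr1:189688067-189688096, minus strand, match at bases 3 to 8: ggcggcgggcagTTTGAAtcgctcgtgctg
Cdca3, chr6:124830194-124830223, plus strand, match at bases 31 to 36: cgtggagggaagTTTGAAactccgggcttt
Top2a, chr11:99024195-99024224, minus strand, match 23 to 18 bases before the start: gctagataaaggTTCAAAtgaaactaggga
Kif11, chr19:37376351-37376380, plus strand, match 19 to 14 bases before the start: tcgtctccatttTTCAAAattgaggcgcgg
Spc25 and Kif23, which were called in opposite directions, share the element with Top2a, Kif11, Cdca3 and Cenpf, whose calls were in 1 population. Of the 27 mitosis genes with a window, 21 had TTTGAA on either strand (22 of 28 windows, 78.6%), against 11.9% of windows of kept genes, 17.9% of all 32851 windows and 9.68% of S phase windows. A CCAAT box was found in 82.1% of mitosis windows, 64.5% of S phase windows and 37.6% of windows of kept genes. Within the list the element did not sort the genes: the median contrast was 0.94 over the 21 genes with it and 0.91 over the 6 without it. Of the 13 opposite genes 12 had a window, and 3 of these (Spc25, Kif23 and Ipo4) held TTTGAA. A match is a description of letters, not a shown site.

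The 4 largest negative contrasts were those of Hspa1a, Hspa1b, Jun and Fos, stress and early response genes that fell in ISP cells. Hspa1a, which encodes the inducible chaperone Hsp70, read 9.44, 9.38, 9.99 and 7.26 on WT ISP arrays and 4.62, 3.45 and 4.76 on Raptorfl/fl ISP arrays, a fall of 4.74 (SE 0.58). On γδ arrays it read 8.30, 7.61 and 6.80 in WT and 9.25, 8.04 and 9.89 in Raptorfl/fl, an estimate of 1.49 that was not called, with overlapping groups. Its contrast was -6.23 (SE 0.85, limma adjusted p = 2.6e-04). WT ISP array 4 was the lowest WT array, yet it remained far above every Raptorfl/fl array. Hspa1b had a contrast of -5.97, but the 2 genes are nearly identical and their signals cannot be assumed to be separate. Their promoter windows also hold the same 30 bases around a heat shock element, GAANNTTC (capitals), the binding sequence of heat shock factors.
Hspa1a, chr17:34972242-34972271, minus strand: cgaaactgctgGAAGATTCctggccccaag
Hspa1b, chr17:34959324-34959353, minus strand: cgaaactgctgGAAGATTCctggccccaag
Hsph1, chr5:149636277-149636306, minus strand: tgcagattctgGAAAGTTCtcctcagtagg
Windows of the heat shock list held this element in 8 of 18 cases (44.4%, either strand), against 5.67% of windows of kept genes. Of 17 kept genes of the list, 14 fell in ISP cells (12.7% of all kept genes did) and limma called 0 in γδ T cells (3 higher and 0 lower at an unadjusted p under 0.05), with medians of -0.45 and 0.02. The contrast was called for 7, all negative (13 with arrays centred), including Hsph1 (-1.76) and Hsp90aa1 (-0.74).

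Early response genes showed a like pattern, with a small shift up in γδ T cells. Over 26 kept genes the median genotype difference was -0.43 in ISP cells and 0.25 in γδ T cells, and 19 genes had estimates of opposite sign. Limma called 12 lower and 1 higher in ISP cells, 3 higher and 0 lower in γδ T cells (9 and 0 at an unadjusted p under 0.05), and 13 negative and 1 positive contrasts, where 6.44% of all genes had negative ones. Among all kept genes 12.7% were lower in ISP cells and 2.36% higher in γδ T cells. No gene of the list passed in opposite directions in both populations. Jun, a subunit of the transcription factor AP-1, read 8.80, 7.73, 9.12 and 7.60 against 5.14, 4.56 and 5.49 in ISP cells and 10.00, 10.19 and 9.71 against 10.49, 10.39 and 10.48 in γδ T cells (WT first). Its genotype differences were -3.25 (SE 0.28) and 0.49 (SE 0.30), and its contrast -3.74 (SE 0.41, limma adjusted p = 3.3e-05). Fos had a contrast of -2.44 and Fosb of -2.21, and neither was called in γδ T cells. The list level was 0.16 to 0.26 on Raptorfl/fl γδ arrays and -0.06 to 0.07 on WT γδ arrays.

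Id3, the inhibitor of E proteins that marks receptor signal in both lineages, read 8.93, 8.66, 9.04 and 8.93 on WT ISP arrays and 6.64, 6.74 and 6.43 on Raptorfl/fl ISP arrays. On γδ arrays it read 10.03, 9.79 and 9.90 in WT and 9.84, 9.61 and 9.81 in Raptorfl/fl, with overlapping groups. The genotype differences were -2.29 (SE 0.12) and -0.15 (SE 0.13), and the contrast -2.13 (SE 0.17, limma adjusted p = 9.6e-07). Il7r, the receptor chain for interleukin 7, fell by 1.68 in ISP cells and was 0.26 higher, uncalled, in γδ T cells, a contrast of -1.94 (SE 0.27). WT ISP arrays of Il7r spread from 5.03 to 6.20, and no Raptorfl/fl ISP array was above 4.01. The cytokine gene Tnf had a contrast of -1.15 of the same kind.

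Growth genes that depend on mTORC1 elsewhere fell in ISP cells without a matching change in γδ T cells. Of 30 ribosome biogenesis genes 26 fell in ISP cells (median -0.43), and in γδ T cells limma called 0 (6 higher and 0 lower at an unadjusted p under 0.05), with a median of 0.08. Over all kept genes 12.7% fell in ISP cells, 2.36% rose and 2.06% fell in γδ T cells, and 6.44% had a negative contrast. The contrast was called for 22, all negative, with a median of -0.56, and for 14 without ISP Raptorfl/fl array 3 or without γδ WT array 1. Rrp12, an export factor of ribosomal subunits, read 6.21, 6.65, 6.28 and 6.04 against 5.27, 5.44 and 5.39 in ISP cells and 7.51, 7.57 and 7.55 against 7.76, 7.58 and 7.56 in γδ T cells (WT first), a contrast of -1.01 (SE 0.15, limma adjusted p = 5.8e-04). The Rrp12 groups did not overlap in ISP cells and overlapped in γδ T cells. Rrp9, Heatr1 and Ddx21, all needed to make ribosomal RNA or subunits, had contrasts of -0.91, -0.75 and -0.80. On Raptorfl/fl γδ arrays the list level was 0.08, 0.09 and 0.09, above the WT range of -0.07 to 0.05. Over all kept genes the median γδ genotype difference was itself 0.03. That median was 0.07 with arrays centred on their medians and 0.001 after quantile normalization.

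Of 19 genes of cholesterol synthesis and uptake, 15 fell in ISP cells (median -0.67), and 1 fell in γδ T cells (median -0.00, below 0 by 0.003, a sign that changed with the scaling). The contrast was called for 12, all negative. For this and the next 2 lists, the shares over all kept genes were 12.7% lower in ISP cells, 2.06% lower in γδ T cells and 6.44% negative contrasts. Sqle, squalene epoxidase, had genotype differences of -1.39 and -0.14, and Hmgcs1, the synthase before the rate-limiting step, of -1.42 and 0.11, with contrasts of -1.25 (SE 0.16) and -1.53 (SE 0.23). Msmo1, a methylsterol oxidase, had a contrast of -1.49. Fdps, farnesyl diphosphate synthase, had -1.39 and -0.41, and its γδ estimate was not called. Fatty acid genes had 4 negative contrasts of 12: Fads2, a desaturase, fell in both populations (-1.70 and -0.70, contrast -0.998), and Fasn, fatty acid synthase, and Elovl6, an elongase, were called in ISP cells and not in γδ T cells (contrasts -0.65 and -0.60). Amino acid supply and one-carbon genes had 6 negative contrasts of 19, among them Slc3a2, a chain of amino acid transporters, at -0.59 and Phgdh, of serine synthesis, at -0.57.

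Genes of energy metabolism had contrast calls at about the background share of 10.2%. Of 46 oxidative phosphorylation genes, 30 fell in ISP cells and 3 in γδ T cells, against 12.7% and 2.06% of all kept genes. However, 45 of 46 estimates were below 0 in each population, and 5 contrasts were called (median -0.15). That number was 2 with only the 13 arrays fitted, 1 after quantile normalization, 8 with arrays centred and 1 without γδ Raptorfl/fl array 3 or γδ WT array 3. Oxidative phosphorylation levels were -0.30, -0.29 and -0.33 on Raptorfl/fl ISP arrays and -0.14, -0.15 and -0.16 on Raptorfl/fl γδ arrays, below every WT array. Of 17 glycolysis genes, 9 fell and 1 rose in ISP cells, 4 fell and 1 rose in γδ T cells (0 fell without γδ Raptorfl/fl array 2), and 2 contrasts were called: Ldhb, a lactate dehydrogenase chain, at 0.82 and Pfkl, a phosphofructokinase, at -0.68. For 25 genes of mTOR complexes and regulators 1 contrast was called in each direction, and for 28 lysosome and autophagy genes limma called 0 contrasts (1 positive and 4 negative at an unadjusted p under 0.05).

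**Figure D4:**
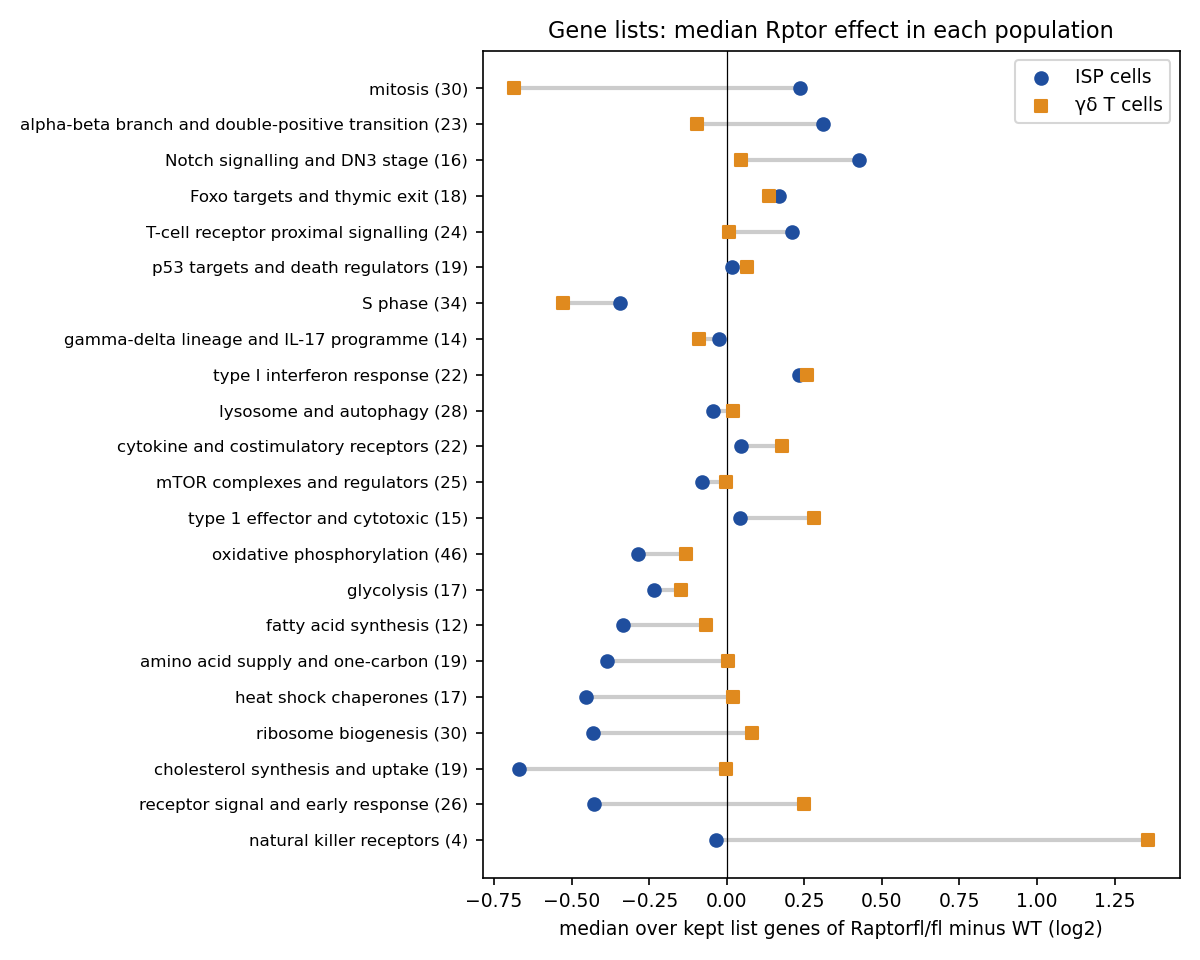
For each of 22 gene lists (number of kept genes in parentheses) the median Raptorfl/fl minus WT difference in log2 units is drawn for ISP cells (blue circles) and γδ T cells (orange squares), ordered by the median contrast. Mitosis (0.24 and -0.68) and the αβ branch (0.31 and -0.10) lie at the top, and early response (-0.43 and 0.25) and natural killer receptors at the bottom, the last on 4 kept genes (-0.04 and 1.36), where all 23 measured members had medians of 0.03 and 0.29.

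Genes of the αβ branch and of receptor signalling tended the other way from growth genes. Of 23 αβ genes, 11 rose and 2 fell in ISP cells, 2 fell in γδ T cells, and 9 contrasts were called, all positive. Over all kept genes 11.1% rose and 12.7% fell in ISP cells, 2.06% fell in γδ T cells and 3.8% had a positive contrast, so the 2 that fell in ISP cells are no more than the background. In ISP cells Tox2, a relative of the factor Tox, rose by 1.73 and Cd27, a costimulatory receptor of the TNF receptor family, by 0.83, and Aqp11, an aquaporin, by 0.57; the γδ estimates were -0.21, 0.06 and -0.27. Of 24 receptor-proximal signalling genes 7 contrasts were positive and 0 negative (11 and 1 at an unadjusted limma p under 0.05). Txk, a Tec-family kinase, rose by 1.93 (SE 0.20) in ISP cells, from 5.73, 5.48, 5.77 and 6.64 to 7.43, 7.91 and 8.15, and had a γδ estimate of -0.09, a contrast of 2.01 (SE 0.30, limma adjusted p = 4.9e-04). Rasgrp1, which activates Ras below the receptor, had a contrast of 0.79. Sidt1, of the SID1 transmembrane family, rose by 1.72 and had a contrast of 1.94. Nnat, which had the largest ISP rise of the kept genes (4.10), had a contrast of 3.53 that was lost without ISP Raptorfl/fl array 1 (2.81) or 2 (2.81), and also without any 1 of 5 γδ arrays (3.46 to 3.61). Raptorfl/fl ISP array 3 read 6.07 and the other two 10.40 and 10.41.

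Cd8b1, which encodes the CD8β chain, had the largest γδ fall among the genes called in the contrast and in γδ T cells but not in ISP cells. On γδ arrays it read 8.81, 8.85 and 8.75 in WT and 6.39, 7.38 and 7.50 in Raptorfl/fl, a fall of 1.72 (SE 0.22). On ISP arrays it read 10.55, 10.44, 10.52 and 10.80 in WT and 10.71, 10.90 and 10.72 in Raptorfl/fl, an estimate of 0.21, and the contrast was 1.92 (SE 0.30, limma adjusted p = 6.9e-04). CD8-positive cells were gated out of the γδ sort. Beside this fall, 3 of the other 7 measured ISP markers (Cd8a, Cd24a and Cdk1) were also called lower in γδ T cells, against 284 of all 22180 genes. Of these, Cd8a lay below the γδ array median (-0.23 in WT), and Cdk1 is also in the mitosis list. The γδ estimates of Ptcra (0.22), Rag2 (0.25) and Cd3e (0.11) were above 0 and that of Tcf12 below it (-0.10), with none called. The mean level of all 8 ISP markers was 2.40 to 2.58 above the median on WT and 2.08 to 2.30 on Raptorfl/fl γδ arrays. Their part in the result was not tested.

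In γδ T cells the rising genes with no matching change in ISP cells included signalling partners of natural killer receptors. Klrd1, which encodes CD94, read 5.67, 5.56 and 5.43 in WT and 7.96, 7.56 and 7.44 in Raptorfl/fl γδ T cells, a rise of 2.10 (SE 0.21), with a contrast of -2.22 (SE 0.29, limma adjusted p = 1.4e-04). On ISP arrays it was 3.75, 3.75, 3.88 and 4.85 in WT and 3.78, 3.93 and 4.09 in Raptorfl/fl, near the ISP array median. Fcer1g and Tyrobp, adaptors with activating motifs, rose by 1.65 and 1.07 (contrasts -1.49 and -1.25), and Cd160 by 0.70 (contrast -0.65, not called). Fcer1g was also low on WT ISP arrays, with a mean of 4.47. The γδ call of Cd160 was lost without γδ Raptorfl/fl array 1 (0.62) or 2 (0.73) or γδ WT array 3 (0.61). These 4 were the members above the filter of 23 measured natural killer receptor genes, and members that are silent in ISP cells could not enter, so their count is not a result about the list. Of all 23 measured members, 9 were called higher and 2 lower in γδ T cells, against 393 and 284 of all 22180 genes. The 8 measured natural killer and innate lymphoid markers had a γδ median of -0.15 and 0 calls in γδ T cells. Among them Ncr1 (-0.80), Klrb1c (-0.88) and Klrg1 (-0.79) lay below the WT γδ array median, where a change is hard to read. Cells with NK1.1 were gated out. A part of natural killer cells in these rises was not tested.

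Other genes called higher in γδ T cells and not called in ISP cells were Kit, the stem cell factor receptor (0.99, contrast -1.16), Slc26a10, of an anion transporter family (1.28, contrast -1.20), Cyth3, an Arf exchange factor (1.05, contrast -1.23), and Id2, a relative of Id3 (0.75, contrast -0.93). On WT ISP arrays Kit, Slc26a10 and Cyth3 averaged only 4.73, 4.47 and 4.32, where array medians were 3.80 to 3.88. For Kit and Slc26a10, 3 of the 4 WT ISP arrays held 1 identical value (4.66 and 4.50). At such levels an ISP fall had little room to show, and these 3 contrasts mainly restate the γδ change. The γδ call of Id2 was lost without γδ WT array 2 (0.68) or 3 (0.70). Kit fell in DN3a cells, by 0.73 (limma adjusted p = 5.9e-04). The chemokine gene Xcl1 rose in both populations, by 0.87 in ISP cells and 2.11 in γδ T cells, and its contrast was called (-1.24). Il12rb2, a chain of the interleukin 12 receptor, went the other way, at 0.74 (called) and -0.50 (not called), with a contrast of 1.25 (SE 0.19). Of 22 cytokine and costimulatory receptors, 4 contrasts were negative and 2 positive, Ifngr1 (1.10) and Il4ra (1.35), chains of the receptors for interferon γ and interleukin 4. The shares over all kept genes were 6.44% negative and 3.8% positive.

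**Figure D5:**
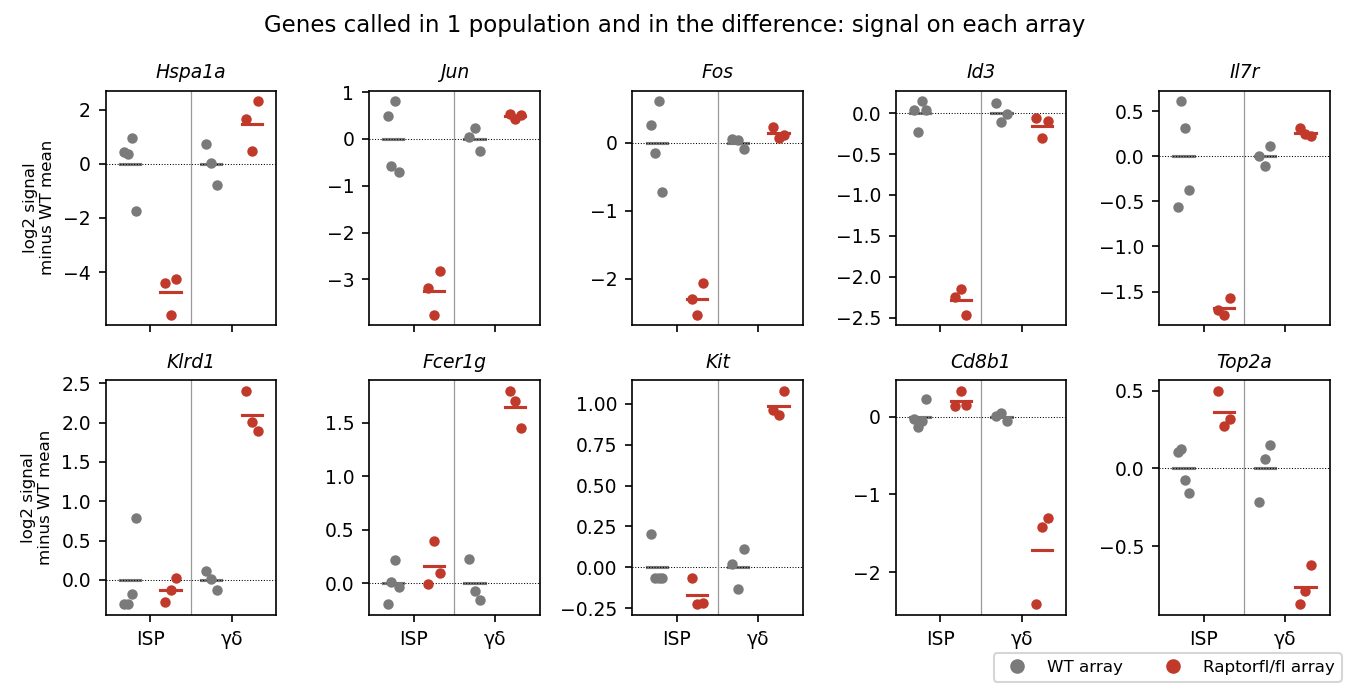
These 10 genes were called in 1 population and in the contrast, and are drawn as log2 signal minus the WT mean of the same population (vertical axis) on each array, with ISP arrays left, γδ arrays right, WT grey, Raptorfl/fl red and bars at group means. Hspa1a, Jun, Fos, Id3 and Il7r are lower on all 3 Raptorfl/fl ISP arrays, whereas Klrd1, Fcer1g and Kit are higher, and Cd8b1 and Top2a lower, on all 3 Raptorfl/fl γδ arrays.

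The 125 genes that moved the same way are the larger shared response. Firre, a long noncoding RNA of the X chromosome, rose by 0.90 in ISP cells and 0.78 in γδ T cells, and Tnfrsf18, the receptor GITR, by 0.77 and 0.56, with no call of the contrast for either (0.11 and 0.21). Nsg2, a neuronal vesicle protein gene, rose by 0.62 and 0.83, and Dennd6b, of the DENN family, by 0.48 and 0.55. Dtx1, a Notch target and regulator, rose in both but by more in ISP cells: it read 5.55, 5.85, 5.72 and 5.55 against 7.50, 7.48 and 7.46 there (1.81) and 8.48, 8.45 and 8.35 against 9.21, 8.90 and 8.89 in γδ T cells (0.57), a contrast of 1.24 (SE 0.14, limma adjusted p = 4.4e-05). It was 1 of 11 same-direction genes called in the contrast. Dtx1 was read by 2 probe sets, and with their mean its γδ genotype difference was 0.41 and not called. Among genes that fell were Slc43a1, an amino acid transporter (-0.71 and -0.90), Aunip, which binds Aurora A (-0.84 and -0.87), Vcl, vinculin (-0.54 and -0.56), Ung, uracil-DNA glycosylase (-0.47 and -0.56), and Chaf1b, a chromatin assembly factor (-0.63 and -0.46). The helicase genes Mcm5 (-0.54 and -0.57) and Mcm10 (-0.59 and -0.85) belonged to this set too. The list of 22 interferon response genes had medians of 0.23 and 0.26, with 9 genes called higher in ISP cells, 5 in γδ T cells (2 without γδ Raptorfl/fl array 2 or 3, and 3 without γδ WT array 2 or 3) and 1 in both, and 2 positive and 3 negative contrasts. Over all kept genes 11.1% were called higher in ISP cells, 2.36% higher in γδ T cells and 1.15% in the same direction. Positive contrasts made up 3.8% and negative ones 6.44%.

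The remaining lists were mixed. Their counts stand against background shares of 11.1% higher and 12.7% lower in ISP cells, 2.36% higher and 2.06% lower in γδ T cells, and 3.8% positive and 6.44% negative contrasts. Of 16 genes of Notch signalling and the DN3 stage, 10 rose and 1 fell in ISP cells and 1 rose in γδ T cells, and 5 contrasts were positive and 1 negative (median 0.30). Ets2, an ETS-family factor, rose by 1.57 in ISP cells and had a γδ estimate of 0.33. Of 18 Foxo targets and thymic exit genes, 8 rose and 4 fell in ISP cells and 1 fell in γδ T cells, with 4 contrasts called each way. Of 19 p53 targets and death regulators, 2 contrasts were called each way. Of 14 kept genes of the γδ lineage and interleukin 17 programme, 1 contrast was positive and 2 were negative, with medians near 0 (-0.02 in ISP cells and -0.09 in γδ T cells) that ran from -0.09 to 0.08 and from -0.13 to -0.00 with single arrays left out. Of 15 type 1 effector genes, 6 rose and 1 fell in γδ T cells and 3 rose and 1 fell in ISP cells, with 1 positive and 5 negative contrasts. The number that rose in γδ T cells was 2 without γδ WT array 2 or 3 and 3 without γδ Raptorfl/fl array 2 or 3, and the negative contrasts were 3 without ISP Raptorfl/fl array 3, γδ Raptorfl/fl array 2 or γδ WT array 3. The median contrast of the γδ lineage and interferon lists changed sign with the scaling, as did the ISP median of the natural killer receptor, p53 and type 1 lists and the γδ median of the amino acid, lysosome and mTOR lists.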

How the data were processed

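RNA of sorted cells (12 ng per array, per the labels' protocols) was hybridised to 1-colour arrays. The deposited values are log2 signals per probe set, made by the authors with RMA in Partek 6.6 per the submitters' processing notes. The sources used here do not state which arrays RMA treated as 1 set. Of 41345 probe sets, 23521 had 1 gene symbol, 1814 several and 16010 none in the annotation used, and only the first were kept; 23328 symbols were updated through Entrez IDs (RefSeq, GRCm38.p6). For 1082 of 22180 genes the probe set with the highest mean was used. A model of 6 group means over 19 arrays was fitted with limma 3.58.1 in R 4.3.3 (lmFit, contrasts.fit, eBayes; Benjamini-Hochberg over 22180 genes, threshold 0.05), after tests on simulated data. Within groups, genes had median SDs of 0.08 to 0.12. Rptor was also tested with an exact permutation test.

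Of 713 list entries, 636 were measured and 508 kept. Named genes were Rptor, the opposite genes (up to 12 per direction by p), up to 8 per direction called in the contrast and 1 population (largest contrasts), up to 6 same-direction genes per direction, and up to 4 per list by p of the contrast; predicted genes, clone names, olfactory and vomeronasal receptors, small RNAs, pseudogenes and receptor segments were passed over. Opposite and same-direction genes had to have groups without overlap in each population, and 1-population genes only in the population where they were called. This was not asked of Rptor or the list genes. Named after their values were seen were Cenpf, Nusap1, Mcm5, Mcm10 and the marker genes. The members, lists and this comparison were chosen with earlier results of these data known. Alternatives changed the arrays fitted, weights, replicate block, scaling, level filter, adjustment, probe set choice, variance trend and minimum fold, and left out each array. Deviations of same-numbered arrays correlated at -0.01 to 0.11 in ISP cells, -0.04 to 0.06 in γδ T cells and 0.28, -0.03 and 0.23 in DN3a cells; not every pair was above 0.1, so numbers were not read as pairs.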

Additional observations from a re-analysis of the deposited data

Results flagged for a closer look

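By the test of the contrast, the genotype difference differed between ISP cells and γδ T cells for 1110 genes. The 13 genes called in opposite directions are part of this set. Their contrasts (ISP minus γδ genotype difference, log2) were 1.51 for St3gal6, 0.99 for Syt13, 1.41 for Neil3, 1.21 for Spc25, 1.31 for Kif23 and 0.63 for Top2b, and -1.57 for Chchd10, -1.19 for Erf, -0.98 for Ipo4, -0.86 for Pprc1, -0.70 for Colgalt1, -1.36 for Tubb3 and -0.84 for H2-K1.

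In the ISP WT group, the only one with 4 arrays, 1 array lay apart from the other 3 for 9 of 105 genes checked. Chance gives about 1 in 20 where values have no ties. Array 3 was apart for Rptor (6.34), Tyms (9.30) and Slc26a10 (4.38), array 2 for Tox2 (5.71) and Lef1 (10.31), array 4 for Cd27 (9.14), Klrd1 (4.85) and Fdps (8.53), and array 1 for Kit (4.93). For Tyms, Slc26a10 and Kit the other 3 arrays held 1 identical value (9.27, 4.50 and 4.66). Any distance from such a tie is flagged, so these 3 flags say little.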

How the results depend on the processing

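With the replicate number as a block, 24 genes were opposite and 129 in the same direction, which include 9 of the 13 and 86 of the 125 genes of the main model; the numbers were not taken to pair the arrays. Of the 13 opposite genes, 10 were still opposite after centring or quantile normalization, 9 after centring and scaling, 8 with array weights and 7 with only 13 arrays fitted. The count of contrast genes was 692 above the 75th percentile and 641 at a minimum of 1.5-fold. The count of opposite genes was 8 with array weights, 29 with arrays centred and scaled, 24 after quantile normalization, 39 adjusted over kept genes alone, 29 with an intensity trend and 6 at 1.5-fold. Same-direction genes were 83 with only 13 arrays fitted, 72 above the 75th percentile, 190 adjusted over kept genes and 21 at 1.5-fold. ISP genes were 667 at 1.5-fold. γδ genes were 778 with arrays centred and scaled, 223 above the 75th percentile and 168 at 1.5-fold. The cause was not tested, beyond fewer genes or arrays where the alternative removes them.

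With each array left out in turn, contrast genes ranged from 745 to 1139, opposite genes from 2 to 14, same-direction genes from 45 to 128, ISP genes from 1787 to 2586 and γδ genes from 220 to 514. The lowest γδ counts came without WT array 2 (220), Raptorfl/fl array 2 (244) and WT array 3 (305). The Rptor call in ISP cells was lost with 13 arrays fitted (-0.24), the block (-0.23), quantile normalization (-0.22) and in 5 fits that left out 1 array; over all such fits the difference ranged from -0.31 to -0.18. The γδ call was lost with 13 arrays (-0.30), array weights (-0.30), the block (-0.30), centring (-0.27) and arrays left out (-0.33 to -0.27). Centring moved the share of positive calls from 46.8% to 36.3% in ISP cells and from 53.4% to 70.7% in γδ T cells, whereas quantile normalization took the γδ share to 40.7%. Centring moved the median contrast from -0.02 to -0.11. For named genes the comparison covered the contrast or, for same-direction genes without a called contrast, the genotype differences. For Rptor it covered the genotype differences. None of these reversed. Other estimates could: with 1 array left out, the Rptor contrast (0.06) fell to -0.01 and the ISP estimate of Klrd1 (-0.12) rose to 0.14. Of the alternative values for named genes other than Rptor, 2740 kept their side of the threshold, 125 lost a call and 39 gained one. Of the list medians of the contrast, 411 moved by less than the spread between arrays and 51 by more.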
